A study of Mus musculus with 62 samples.

Results

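The S100 genes encode small calcium-binding proteins, and 6 of the 37620 genes in the deposited count table are described here: S100a8, S100a9, S100a4, S100a6, S100a10 and S100a11. They were taken by symbol from the table's rows, which pair each symbol with an Ensembl identifier, and all 6 were found. The study sequenced total RNA of ER-Hoxb8 cells and of primary mouse monocytes. ER-Hoxb8 cells are mouse bone marrow progenitors held immature by a Hoxb8 protein fused to the hormone-binding part of the estrogen receptor, and they mature once the fusion protein is switched off. For 24 clones there was 1 library from the progenitor state, named Plus in the titles and GMP in the source names, and 1 from the monocytic state, named Minus. Primary cells gave 14 libraries, a pair for each of 7 groups: the classical, intermediate and nonclassical subsets, and classes 1, 2, 3 and 4.

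All clones were kept in RPMI with serum, antibiotics and stem cell factor (SCF), and all carry the Hoxb8 fusion. Each clone is 1 line, so a clone is the unit of replication in culture. The primary cells were sorted from bone marrow by flow cytometry. The labels do not give the sorting gates, what defines classes 1 to 4, the strain or age of the mice, the time of maturation, or whether the 2 libraries of a primary group came from separate animals. For the primary groups the p-values therefore measure only the spread between these libraries, which may be technical.

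S100 proteins work mostly as dimers that change shape on binding calcium. S100a8 and S100a9 together form calprotectin, a major cytosolic protein of neutrophils that is also made by monocytes, withholds metal ions from microbes and, once released, acts on the receptors Tlr4 and Ager. S100a4 binds nonmuscle myosin and is linked to cell movement, S100a6 (calcyclin) binds the protein encoded by Cacybp, S100a10 (p11) pairs with annexin A2 and has lost calcium binding, and S100a11 pairs with annexin A1. The family sits in a cluster on mouse chromosome 3. Among the genes listed by RefSeq, S100a8 and S100a9 are direct neighbours, as are S100a10 and S100a11, while S100a5 lies between S100a4 and S100a6.

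The bases before the start of 5 of the 6 genes were in the RefSeq promoter table of the later build GRCm38.p6. The 100 bases before the annotated start are printed for 4 of them: S100a8 and S100a9, whose levels moved together across clones, S100a11, which went with S100a8 in monocytic clones, and S100a4, which had the same motif as S100a8. Capitals mark TATAAA, the core of the TATA box. S100a8 lies at chr3:90668971-90669070 on the forward strand, S100a9 at chr3:90695722-90695821 on the reverse strand, S100a4 at chr3:90603670-90603769 on the forward strand and S100a11 at chr3:93520396-93520495 on the forward strand.
S100a8: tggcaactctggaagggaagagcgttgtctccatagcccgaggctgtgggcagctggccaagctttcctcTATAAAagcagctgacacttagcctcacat
S100a9: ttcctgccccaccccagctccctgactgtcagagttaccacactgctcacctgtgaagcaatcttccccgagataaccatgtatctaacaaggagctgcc
S100a4: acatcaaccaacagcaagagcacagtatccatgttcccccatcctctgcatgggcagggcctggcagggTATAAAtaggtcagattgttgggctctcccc
S100a11: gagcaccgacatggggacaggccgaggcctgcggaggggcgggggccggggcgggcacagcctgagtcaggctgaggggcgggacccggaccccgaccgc

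TATAAA was searched on both strands. It began 30 bases before the start in S100a8 and 31 bases before it in S100a4, and 5.56% of the 32851 promoters in the table held it somewhere in the last 100 bases. In S100a9 these letters were absent from the window and began at base 1 after the annotated start. S100a6 and S100a11 had no match in the window. The window of S100a11 was richer in G and C, at 79% against 54% in each of the other 4 genes. A match describes these letters only.

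The libraries differed in depth. Progenitor libraries held 12626427 to 47314297 counts in clones 1 to 13 and 362033 to 16506340 counts in clones 15 to 25. Monocytic libraries held 22853677 to 34542789 and 1827322 to 9120772 counts in the same sets, and primary libraries 21153002 to 35019854 counts. The labels name no batch, so the numbers on either side of the gap at 14 were treated as a possible batch, and values within each set are given with the clone results. The labelled states were set against their markers. A list of 9 progenitor markers (among them Kit, Myb, Mpo and Elane) summed to 10211 to 22647 CPM (counts scaled to the total of each library, adjusted for composition) in progenitors, and 4 monocytic libraries reached or exceeded that range: clone 4 at 11168, clone 17 at 12347, clone 19 at 15918 and clone 22 at 24606 CPM. The progenitor libraries of clones 20 and 21 had the highest sums of 12 neutrophil markers, at 2954 and 1537 CPM against at most 356 CPM in the other progenitors. Maturation results were recomputed without these clones.

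In progenitors of most clones S100a8 and S100a9 were scarce, and in monocytic cells they were abundant in most clones. S100a8 ranged from 0.105 CPM through a median of 3.67 to 2536 in progenitors, and from 146 through 17008 to 52340 in monocytic cells. S100a9 ranged from 0.105 through 4.67 to 3478 CPM in progenitors and from 64.8 through 25368 to 79024 in monocytic cells. The lowest values of both genes in both states belonged to clone 22, the highest progenitor values to clone 20 and the highest monocytic values to clone 9. Together the pair took from 0.0264% to 10.5% of all counts in a monocytic library, with a median of 3.97%, and at most 0.772% in a progenitor library.

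Both calprotectin genes were higher in monocytic cells in 24 of 24 clones. Comparing the states within clones with edgeR's quasi-likelihood test, S100a8 was higher by 10.06 on the log2 scale (SE 0.927, adjusted p = 1.2e-10) and S100a9 by 9.94 (SE 0.899, adjusted p = 8.34e-11). The rise of S100a8 was smallest in clone 20, at 3.53 log2 units, and largest in clone 9, at 14.10, with a median of 9.73. Without the clone as a block, so that group levels rather than clone changes were compared, the values were 6.26 for S100a8 and 6.45 for S100a9. Without clones 4, 17, 19 and 22 the changes were 10.13 and 10.14, and without clones 20 and 21 they were 10.58 and 10.46. In clones 1 to 13 alone the changes were 11.48 and 11.46, and in clones 15 to 25 alone 8.54 and 8.39. The states overlapped across all 24 clones but not within clones 1 to 13, where the monocytic minimum of S100a8 was 6287 CPM and the progenitor maximum 209 CPM. On maturation 11 of the 11 neutrophil markers tested were also called higher (median log2 change 8.49), where 38.5% of all genes were. Of 7 classical monocyte markers 5 were higher and 1 lower (median 2.81). The part of these markers in the S100 changes was not tested.

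S100a4, S100a6 and S100a11 also rose in each of the 24 clones. S100a4 went from 7.81, 24.2 and 132 CPM (lowest, median, highest) to 62.6, 501 and 1719 CPM, a log2 change of 4.44 (SE 0.321, adjusted p = 8.66e-13). S100a6 went from 2.19, 27.6 and 174 to 34.9, 331 and 1266 CPM, a log2 change of 3.79 (SE 0.263, adjusted p = 3.9e-13). The lowest of these S100a6 values, in the progenitors of clone 21, rested on 1 count. S100a11 went from 2.10, 14.8 and 85.3 to 77.2, 224 and 1179 CPM, a log2 change of 4.001 (SE 0.190, adjusted p = 1.84e-16). In clones 1 to 13 alone the changes of S100a4, S100a6 and S100a11 were 4.49, 3.54 and 3.77, and in clones 15 to 25 alone 4.42, 4.14 and 4.33. S100a11 had the smallest spread of the change between clones among the 6 genes, with an SD of 0.861 log2 units against 3.37 for S100a8.

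S100a10 was the exception in size and in regularity. Its progenitor levels of 2.26, 33.7 and 96.2 CPM and its monocytic levels of 10.95, 68.2 and 240 CPM overlapped widely. The log2 change was 1.36 (SE 0.366, adjusted p = 0.00144), and 19 clones were higher and 5 lower after maturation. The largest fall was in clone 9, by 2.76 log2 units, and the largest rise in clone 25, by 4.74, from 10 counts of S100a10 in its progenitor library. In all, 6 of the 6 genes were called higher, while 38.5% of the 11614 genes tested were called higher, 40.1% lower and 78.6% in either direction. The median log2 change of the 6 genes was 4.22 and that of all genes tested was −0.02. In libraries of bulk RNA, more cells with a transcript and more transcript per cell cannot be told apart.

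**Figure D1:**
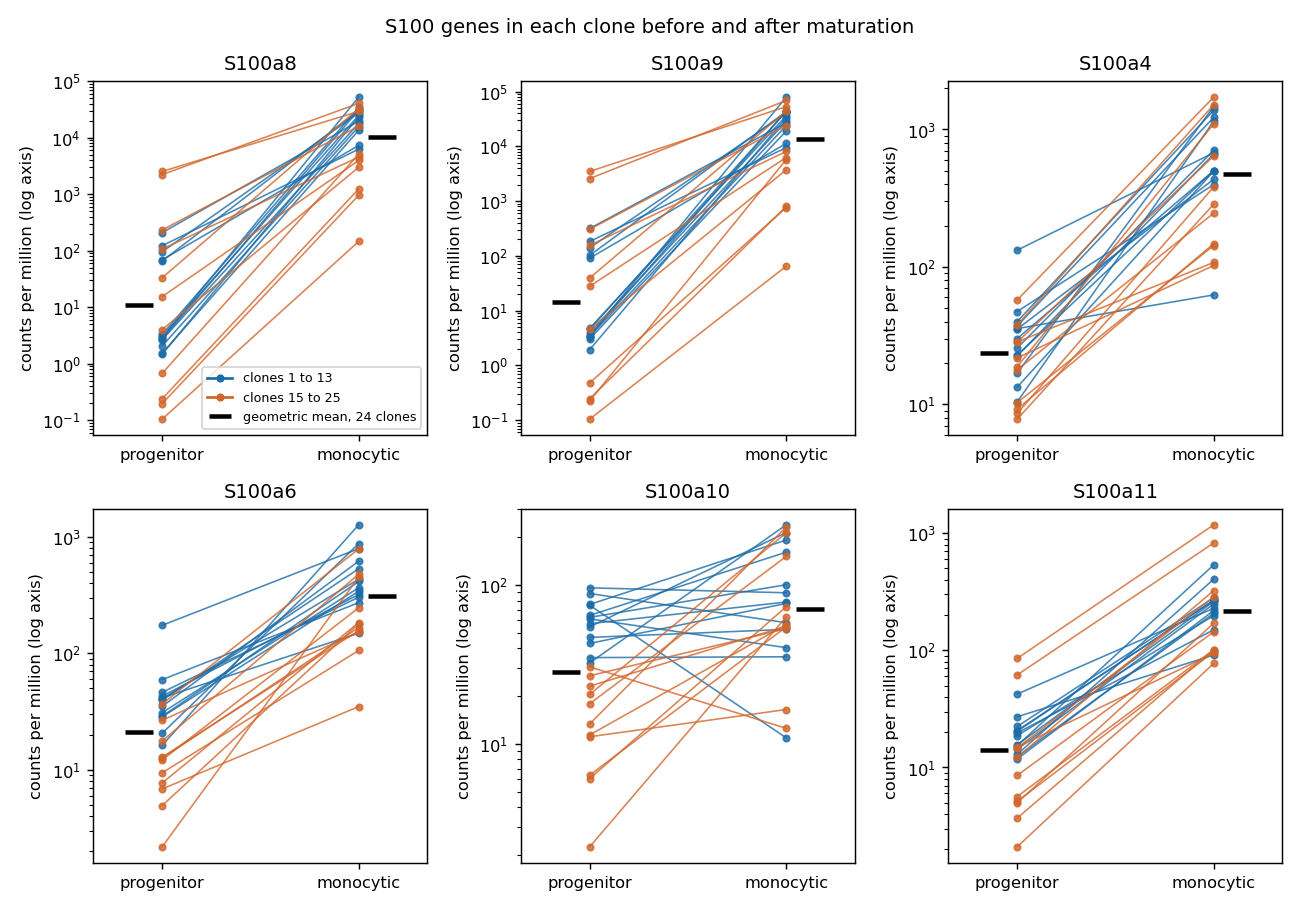
Each line joins the progenitor and the monocytic library of 1 clone, with CPM on a log axis, clones 1 to 13 in blue and clones 15 to 25 in orange, and black bars at the geometric mean of the 24 clones. S100a8 and S100a9 rise in all 24 clones from a progenitor range that is split into a lower and an upper group, while the lines of S100a10 cross, with 19 rising and 5 falling.

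The rise of S100a10 differed between the clone sets. In clones 1 to 13 its mean change was 0.43 log2 units (SD 1.39, 9 clones higher and 4 lower), and in clones 15 to 25 it was 2.34 (SD 1.78, 10 higher and 1 lower). The interaction of state and set was 1.98 (SE 0.606, adjusted p = 0.0197 by edgeR), and 23.7% of all genes passed this test, 6.44% with a larger and 17.3% with a smaller change in clones 15 to 25. Without clones 4, 17, 19 and 22 the difference was 2.08 and just missed (adjusted p = 0.0502), and without clones 20 and 21 it was 2.44 (0.00141). Within clones 1 to 13 alone the change of S100a10 was 0.53 and did not pass (adjusted p = 0.18), and within clones 15 to 25 alone it was 2.53 (adjusted p = 0.000359). The progenitor levels differed most. They lay between 32.4 and 96.2 CPM in clones 1 to 13 and between 2.26 and 30.6 CPM in clones 15 to 25. The value of 30.6 CPM, in clone 21, rested on 14 counts, so the gap between the sets is not resolved. The share of all genes without overlap between the sets was not counted. Depth moved with the set, and its part was not tested. The other 5 genes did not pass the test of the set difference, and S100a8 (−3.01, interval −6.15 to 0.14, adjusted p = 0.155) and S100a9 (−3.12, interval −6.15 to −0.09, adjusted p = 0.126) had wide intervals.

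Progenitor clones fell into 2 levels of calprotectin transcripts. Ordered by S100a9, 13 clones lay below 2.28 log2 CPM and 11 above 4.81, with an empty stretch of 2.52 log2 units between them. The same 11 clones lay above the gap in S100a8, which was 1.91 log2 units wide. They were clones 1, 2, 3, 4, 5, 15, 16, 18, 19, 20 and 21, so both sets contributed, with 5 and 6 clones. Mean S100a9 was 7.72 log2 CPM above the gap and 0.84 below it. In the 4 lowest progenitor libraries S100a9 rested on 8 counts or fewer (8 in clone 17, 2 in clone 22, 5 in clone 23 and 1 in clone 25), so their order is not resolved at this depth. With at least 3 clones on each side, the other 4 genes had no gap wider than 0.79 log2 units in progenitors. Single clones could lie further out, as clone 13 did for S100a6, at 7.44 log2 CPM against 5.90 in the next clone.

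In monocytic cells a different split appeared for S100a9. Clones 17, 22 and 23, with 760, 64.8 and 799 CPM, lay 2.22 log2 units below the remaining 21. The same 3 clones were the lowest for S100a8, at 1238, 146 and 961 CPM, with a gap of 1.28. Neutrophil markers summed to 649, 268 and 549 CPM in these 3 libraries, against a median of 23736 and a maximum of 79621 CPM over the monocytic libraries. Progenitor markers summed to 12347, 24606 and 1244 CPM in the same libraries, so clones 17 and 22 are among the 4 monocytic libraries with progenitor-level sums. The part of these markers in the S100 levels was not tested. All 3 had been in the lower progenitor group, as had clone 9, which reached the highest monocytic level.

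The spread between clones shrank on maturation for the calprotectin genes and not detectably for the others. For S100a8 the SD over clones was 3.87 log2 units in progenitors and 2.05 in monocytic cells (log2 ratio of variances −1.83, permutation test that swaps the states within clones, adjusted p = 0.00042). For S100a9 it was 3.98 and 2.45 (−1.40, permutation adjusted p = 0.0103). Without clones 20 and 21 S100a8 still passed (−1.27, permutation adjusted p = 0.032) and S100a9 did not (−0.91, permutation adjusted p = 0.16). The SDs of S100a4 were 0.969 and 1.36, of S100a6 1.33 and 1.15, of S100a10 1.39 and 1.26 and of S100a11 1.21 and 0.997, and none of these 4 pairs passed (lowest adjusted p = 0.207). Each of the 6 genes was more variable between clones than most: the median SD of 9539 genes was 0.453 in progenitors and 0.544 in monocytic cells, and the SD of S100a9 exceeded that of 99.96% and 99.5% of them. In clones 1 to 13 the SD of S100a8 was 2.76 before and 0.866 after maturation, and in clones 15 to 25 it was 5.02 and 2.49. For S100a10 it was 0.478 and 1.24 in clones 1 to 13, and 1.11 and 1.32 in clones 15 to 25. It was thus larger after maturation within each set, while its pooled SD also holds the level difference between the sets. In the same order the SDs of S100a4 were 0.916 and 1.17, then 0.945 and 1.51. Those of S100a6 were 0.819 and 0.815, then 1.11 and 1.20, and those of S100a11 0.510 and 0.618, then 1.62 and 1.33.

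Clones differed in 4 of the 6 genes beyond the state, where 11.7% of all genes did. This test also takes in any difference between the clone sets, which it cannot tell apart from differences between single clones. S100a11 passed with an adjusted p of 0.000428, S100a9 with 0.0253, S100a6 with 0.0278 and S100a8 with 0.0367 (edgeR, all clone terms together). S100a4 (0.174) and S100a10 (0.61) did not. In clones 1 to 13 alone, 0 of the 6 genes passed, and 36 genes did in all. In clones 15 to 25 alone S100a8, S100a9 and S100a11 still passed and S100a6 did not (adjusted p = 0.166), and 387 genes did in all. Without clones 4, 17, 19 and 22 only S100a11 still passed (adjusted p = 0.00119), and without clones 20 and 21 only S100a6 did (0.0201).

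Whether a clone high before maturation was also high after it was asked for each gene. For S100a11 Pearson's r over 24 clones was 0.71 (permutation p = 0.00011, adjusted over the 6 genes 0.00066) and Spearman's rho 0.50 (permutation p = 0.0128, adjusted 0.0768). It dropped to 0.55 once the 2 clones with the most extreme progenitor levels were omitted. Within clones 15 to 25 r was 0.90 and rho 0.64, with r = 0.63 without clones 20 and 21, and within clones 1 to 13 r was −0.35 and rho −0.10. The difference between the sets was not tested. S100a6 (r = 0.41, rho = 0.33, permutation p = 0.0505 and 0.113, adjusted 0.0758 and 0.136), S100a4 (r = 0.27, rho = 0.37, permutation p = 0.199 and 0.073, adjusted 0.239 and 0.109) and S100a10 (r = 0.05, rho = 0.09, permutation p = 0.813 and 0.677, adjusted the same) did not pass. Within clones 1 to 13 and 15 to 25 the r of S100a6 was −0.19 and 0.23, that of S100a4 −0.18 and 0.53 and that of S100a10 −0.14 and −0.07, and none of these passed. Without clones 20 and 21 the pooled r of S100a6 passed (0.53, adjusted permutation p = 0.029), but centred on the clone set, over all 24 clones, it was 0.07 (adjusted permutation p = 0.752). S100a11 still passed without clones 20 and 21 (r = 0.51, adjusted permutation p = 0.029).

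S100a8 and S100a9 form separate groups of clones, so no pooled correlation is given. Within clones 15 to 25 the progenitor and monocytic levels of S100a8 had r = 0.85 and rho = 0.86 (permutation p = 0.00083 and 0.00116), and those of S100a9 r = 0.85 and rho = 0.90 (permutation p = 0.00075 and 0.00025). Over the 17 relations within sets and groups the p of r was 0.00353 after adjustment for each. Omitting the 2 clones with the most extreme progenitor levels gave 0.78 and 0.84. Within clones 1 to 13 the r values were −0.36 and −0.40 (adjusted permutation p = 0.349 and 0.348). These clones spanned only 12.62 to 15.68 log2 CPM of S100a8 after maturation, against 7.19 to 15.31 in clones 15 to 25. Within the 11 clones of the upper progenitor group r was 0.50 for S100a8 and 0.55 for S100a9 and did not pass (adjusted permutation p = 0.251 and 0.226), with 0.21 and 0.16 after omitting the 2 most extreme clones. Within the 13 of the lower group it was 0.85 and 0.83 (adjusted permutation p = 0.00353 and 0.00428), with 0.66 and 0.81 after the same omission. This lower group joins both sets: monocytic S100a9 was 14.21 to 16.27 log2 CPM in clones 6 to 13 and 6.02 to 12.48 in clones 17 and 22 to 25. The permutation ignored the set, so a set difference and a relation between levels cannot be told apart there. Progenitor S100a8 and S100a9 of clones 17, 22, 23 and 25 rested on 8 counts or fewer, here and within clones 15 to 25.

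**Figure D2:**
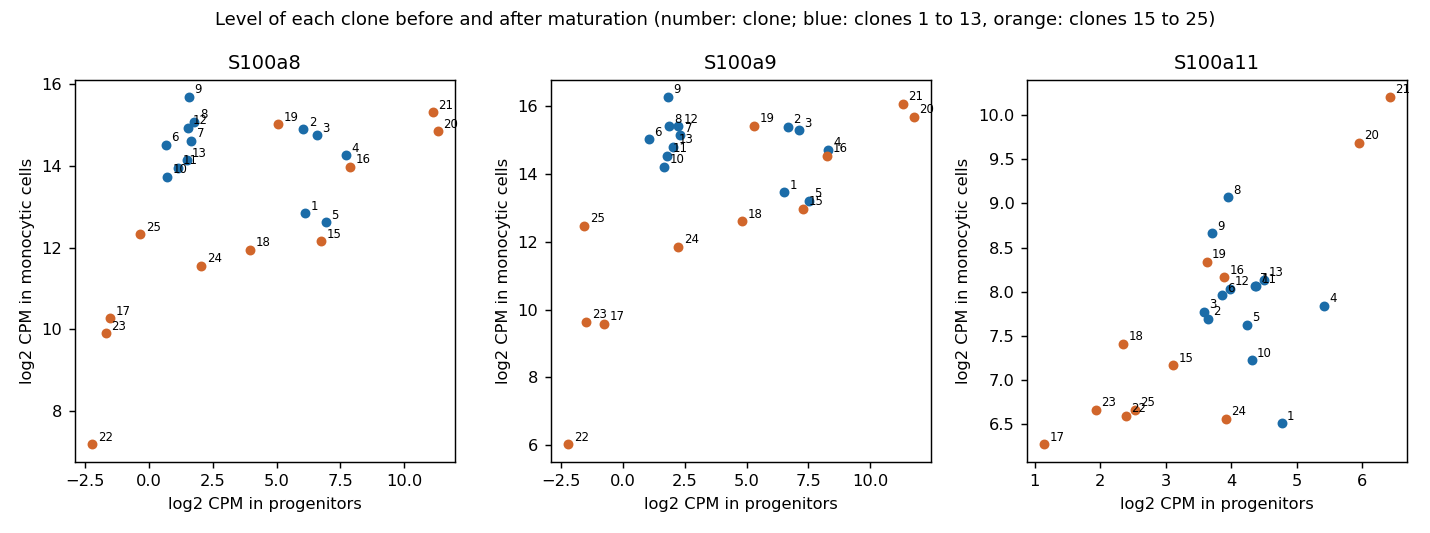
Points are the 24 clones by number, with log2 CPM in progenitors on the horizontal axis and in monocytic cells on the vertical axis for S100a8, S100a9 and S100a11, clones 1 to 13 in blue and clones 15 to 25 in orange. For S100a8 and S100a9 the orange clones run from clone 22 at the lower left to clones 20 and 21 at the upper right, and the blue clones lie in a narrow band after maturation, from 12.62 to 15.68 log2 CPM of S100a8. For S100a11 the orange clone at the lower left is clone 17.

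The calprotectin genes were tightly coupled across clones in both states. S100a8 and S100a9 had r = 0.997 and rho = 0.98 within the 11 upper progenitor clones, r = 0.949 and rho = 0.91 within the 13 lower ones, and r = 0.991 and rho = 0.98 within the 21 upper monocytic clones (permutation p of r at most 0.0001, adjusted over 3 relations 0.0001 or lower). The log2 difference S100a8 minus S100a9 averaged −0.40 in progenitors (SD 0.423) and −0.39 in monocytic cells (SD 0.472), a mean change of 0.01 within clones (SD 0.548, sign-flip permutation p = 0.941). In progenitors it ran from −0.94 to 1.23, the highest in clone 25 on 3 and 1 counts. In the 11 progenitor libraries with at least 100 counts of both genes the mean was −0.49 (SD 0.182). The difference was above 0 in 3 monocytic libraries. These were clones 17, 22 and 23, the same clones with the least S100a9 (a match noticed after the values were seen). In primary cells the difference was 0.72 and 0.97 in classical monocytes, −0.44 and −0.32 in intermediate, 0.19 and 0.34 in class 1 and −0.08 and −0.03 in class 4.

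Besides S100a8 with S100a9, 2 pairs that went together in monocytic clones are described first. S100a11 went with S100a8 (r = 0.75, rho = 0.84, permutation p = 5e-05 and 1e-05, adjusted over 30 relations 0.00036 and 7.5e-05), and held within clones 1 to 13 (r = 0.73) and 15 to 25 (r = 0.81). S100a4 went with S100a10 (r = 0.76, rho = 0.69, permutation p = 3e-05 and 0.00033, adjusted 0.0003 and 0.00165), with r = 0.71 and 0.82 within the sets. S100a4 and S100a11 went in opposite directions (r = −0.54, rho = −0.49, permutation p = 0.00615 and 0.0178, adjusted 0.0168 and 0.0485), although this r did not pass without clone 21 (−0.46, adjusted permutation p = 0.0572) or without clones 20 and 21 (−0.33, adjusted permutation p = 0.218). The other relations across these pairs did not pass: S100a8 with S100a4 (r = −0.21, rho = −0.37, adjusted permutation p of r = 0.432), S100a8 with S100a10 (r = −0.34, rho = −0.41, 0.178) and S100a10 with S100a11 (r = −0.43, rho = −0.23, 0.0746), and the sets gave the last opposite signs (r = 0.15 for clones 1 to 13, −0.80 for clones 15 to 25). The 2 clones farthest from the median of the first gene of a pair were also omitted. That gave r = 0.79 for S100a8 with S100a11, 0.64 for S100a4 with S100a10 and −0.42 for S100a4 with S100a11. Clones 9, 20 and 21 had the least S100a4 (62.6, 102 and 108 CPM) and S100a10 (10.95, 16.5 and 12.6 CPM), while S100a11 was highest in clones 21 and 20 (1179 and 826 CPM). In monocytic clones S100a9 also went with S100a11 (r = 0.74, adjusted permutation p = 0.00036), with r = 0.72 and 0.80 within the sets. S100a9 forms separate groups in monocytic cells, so its pooled r with S100a11 or with S100a6 also spans the gap between groups. S100a6 passed with S100a8 (r = 0.48, adjusted permutation p = 0.0464) and S100a9 (r = 0.51, 0.0343). For these 2 pairs the sets gave opposite signs, r = −0.51 and −0.54 in clones 1 to 13 and 0.54 and 0.56 in clones 15 to 25. Omitting the 2 clones farthest from the median of S100a8 or of S100a9, r was 0.27 and 0.07. In progenitors S100a11 with S100a8, S100a9 and S100a10 and S100a6 with S100a4 and S100a10 also passed (adjusted permutation p of r at most 0.0168). S100a11 had r = 0.27 and 0.88 with S100a8 within clones 1 to 13 and 15 to 25. With S100a9 these were 0.29 and 0.85, and with S100a10 0.66 and 0.48. S100a6 had 0.90 and 0.08 with S100a4, and 0.57 and −0.33 with S100a10. S100a8 and S100a9 form separate groups in progenitors, so their pooled r also spans the gap. The pooled permutation ignored the set, so a set difference and a relation between genes cannot be told apart there.

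**Figure D3:**
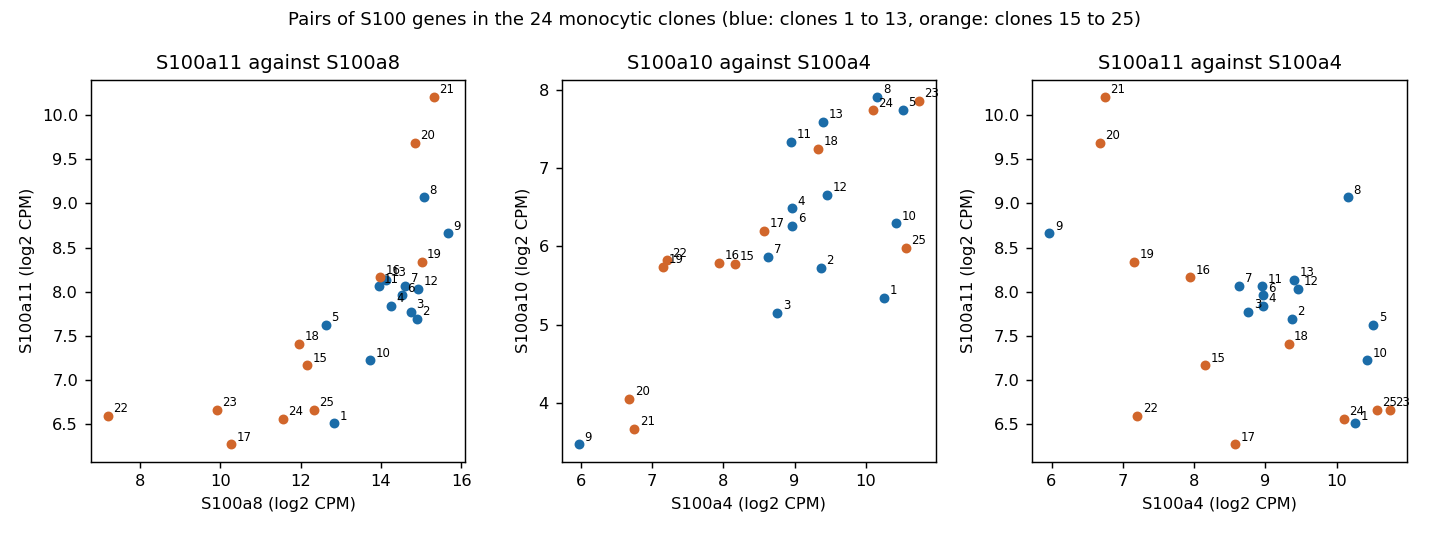
Each panel sets the log2 CPM of 2 S100 genes against each other in the 24 monocytic libraries, labelled by clone number, clones 1 to 13 in blue and clones 15 to 25 in orange. S100a11 climbs with S100a8 and S100a10 with S100a4, and clones 9, 20 and 21 sit at the low end of S100a4.

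The genes whose clone pattern was most like that of each S100 gene were named by a fixed measure: the correlation over the 48 clone libraries after removing the mean of each state in each set, among 7496 genes. For S100a8 they were Ngp (r = 0.96), Stfa1 (0.94) and Chi3l3 (0.94), and for S100a9 Ngp (0.97), Stfa1 (0.96) and Camp (0.94). Ngp and Camp encode proteins of neutrophil granules. S100a11 was closest to Pglyrp1 (0.87), a peptidoglycan-binding granule protein, then Prdx5 (0.85) and Ltb4r1 (0.84). S100a4 was closest to Plekho1 (0.81), Capg (0.81), an actin-capping protein, and Ctsz (0.79), a lysosomal protease. S100a10 was closest to Slc25a4, Akr1e1 and Tubb6 (0.79 to 0.77) and S100a6 to Fam134b, D1Ertd622e and Srd5a3 (0.73 to 0.67). The libraries share culture and depth, so these are descriptions.

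Partners, receptors and regulators of S100 genes were taken from lists. Of 9 partner and receptor genes, 7 rose and 2 fell, with a median of 2.11, where 78.6% of all genes were called with a median of −0.02. The partner of S100a10, Anxa2, rose by 2.16 (SE 0.152), and Anxa1, the partner of S100a11, by 2.48 (SE 0.179). Ahnak, a scaffold protein bound by the S100a10 and annexin A2 complex, rose by 5.83 (SE 0.523) and the receptor gene Tlr4 by 2.93 (SE 0.247), while Cacybp, whose product binds S100a6, fell by 1.22 (SE 0.112). Of 6 regulators, Cebpe (4.94), Cebpd (3.06), Cebpb (2.74), Spi1 (2.26) and Stat3 (1.26) rose, and Cebpa fell by 0.84 (adjusted p at most 8.96e-05 for each of these 11 genes, edgeR). These are transcription factors of granulocytes and monocytes. Of 10 further S100 genes only S100a1 and S100a13 passed the filter on low counts, and they rose by 0.95 and 1.14. S100a3, S100a5, S100a7a, S100a14, S100a16, S100b and S100g reached at most 2.19 CPM in any clone library, and S100z had no count.

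Among primary subsets, classical monocytes held the most S100a6 and S100a10. S100a10 was at 539 and 614 CPM in the classical, 225 and 185 in the intermediate and 131 and 135 in the nonclassical libraries. S100a6 was at 645 and 643, then 108 and 155, then 103 and 183 CPM. For both genes, and also for S100a4 and S100a11, the classical libraries were above all others of the subsets. The share of all genes with such a separation was not counted. In the overall test 2 of the 6 genes passed (S100a10 adjusted p = 0.0255, S100a6 0.0388, edgeR), where 2.95% of 13944 genes did. Both overall calls were lost without either classical library, either intermediate library or nonclassical replicate 2 (0.0549 to 0.307 for S100a10, 0.0702 to 0.374 for S100a6), and that of S100a6 also with scaling by total counts only (0.0535).

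Compared with classical monocytes, intermediate monocytes had less S100a6 (log2 change −2.23, SE 0.306, adjusted p = 0.0433) and less S100a10 (−1.43, SE 0.187, adjusted p = 0.041), so 2 of 6 were called, both lower, against 2.11% of all genes (1.19% higher, 0.918% lower). Nonclassical monocytes had less S100a6 (−2.14, SE 0.305, adjusted p = 0.029) and less S100a10 (−2.06, SE 0.191, adjusted p = 0.0123), again 2 of 6, both lower, against 5.82% of all genes (2.91% higher, 2.9% lower). S100a4 had a change of similar size, from 390 and 404 CPM in classical to 47.9 and 83.8 in intermediate and 47.2 and 113 in nonclassical libraries, but did not pass (−2.53, adjusted p = 0.0672, and −2.29, adjusted p = 0.0594). With the replicate number as a block S100a4 passed in both comparisons (adjusted p = 0.0455 and 0.0356), and S100a10 no longer passed between intermediate and classical cells (0.0548). Leaving out either classical library, either intermediate library or nonclassical replicate 2 ended the call of S100a6 against intermediate cells, and each of the 6 single omissions ended that of S100a10 (adjusted p of 0.0559 to 0.352) and that of S100a6 against nonclassical cells (0.0504 to 0.238). The call of S100a10 against nonclassical cells was lost without either classical library or nonclassical replicate 2 (adjusted p of 0.0608 to 0.15). The fold changes kept their direction each time.

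S100a8 and S100a9 were highest in intermediate cells, and these differences did not pass. S100a8 was at 259 and 322 CPM in classical, 770 and 954 in intermediate and 175 and 72.1 in nonclassical libraries. S100a9 was at 132 and 195, then 963 and 1293, then 240 and 71.3 CPM. The intermediate minus classical changes were 1.63 for S100a8 (interval 0.35 to 2.92, adjusted p = 0.158) and 2.85 for S100a9 (interval 1.10 to 4.60, adjusted p = 0.107), and the nonclassical minus classical change of S100a8 was −1.14 (interval −2.41 to 0.13, adjusted p = 0.248). Without nonclassical replicate 1 that change of S100a8 was −2.06 and passed (adjusted p = 0.0393), as did S100a9 between intermediate and classical cells (2.84, adjusted p = 0.0463). S100a9 passed there also with all 14 primary libraries in the fit (0.0214), as did S100a8 between nonclassical and intermediate cells (0.0205). Nonclassical minus intermediate, the changes were −2.78 (adjusted p = 0.251) and −2.82 (adjusted p = 0.275). In that comparison edgeR called 0 genes of all tested, that is, 0% (1710 had an unadjusted p under 0.05), and DESeq2 called 1289 and with them 3 of the 6 genes. DESeq2 also called 5 of the 6 genes between intermediate and classical cells and 4 between nonclassical and classical cells. S100a11 was at 399 and 407, then 185 and 358, then 121 and 220 CPM and passed in none of the 3 edgeR comparisons.

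Other cell types' markers moved with the subsets. The neutrophil list summed to 1487 and 1641 CPM in classical, 3526 and 4395 in intermediate and 407 and 1500 in nonclassical libraries, with Stfa1 at 0 in the classical ones. The mast cell and basophil list summed to 7.40 and 16.7 CPM in classical but to 3968 and 8573 in intermediate and 1725 and 7005 in nonclassical libraries. The list of classical monocyte markers stood at 18377 and 21324, 1565 and 1611, and 920 and 1028 CPM. The B cell list summed to 32.1 and 35.02 CPM in classical, 439 and 397 in intermediate and 2012 and 1814 in nonclassical libraries, with 5 of 6 genes higher in both contrasts with classical cells. The progenitor list reached 4588 and 13170 CPM in intermediate libraries against 842 and 1174 in classical ones, and 3 of 5 tissue macrophage markers were higher in intermediate and in nonclassical cells. The part of other cells in the S100 differences was not tested.

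The 4 classes differed in all 6 genes, where 43.8% of 13686 genes differed, and the order of the classes depended on the gene. The overall call of S100a6 (adjusted p = 0.0479) was lost without either class 1 library, class 2 replicate 1 or either class 3 library (0.0833 to 0.203), and with DESeq2 size factors (0.0575), total counts only (0.137) or all 14 primary libraries in the fit (0.145). That last fit also ended the overall call of S100a11 (0.0738). S100a8 was at 83.1 and 166 CPM in class 1, 103 and 175 in class 2, 1644 and 1229 in class 3 and 9382 and 14458 in class 4. S100a9 followed the same steps, with 65.7 and 146, 65.6 and 184, 1561 and 1110, and 9914 and 14740 CPM. S100a4 took a different order, with 254 and 271, 450 and 351, 155 and 172, and 57.7 and 67.6 CPM. So class 4 had the most calprotectin transcripts and the least S100a4. Its 2 libraries did not overlap with the other 3 classes in these 3 genes. The share of all genes without such overlap was not counted. Against classes 1, 2 and 3, 25.1%, 40.9% and 28.6% of all genes were called in class 4.

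Class 4 differed from class 1 in 5 of the 6 genes. S100a8 was 96.0-fold higher (log2 6.59, SE 0.489, adjusted p = 0.000222), S100a9 117-fold higher (6.87, SE 0.664, adjusted p = 0.000498) and S100a11 2.11-fold higher (1.08, SE 0.166, adjusted p = 0.00331). S100a4 was 4.17-fold lower (−2.06, SE 0.161, adjusted p = 0.000237) and S100a10 1.504-fold lower (−0.59, SE 0.133, adjusted p = 0.0159). S100a6 differed by −0.12 (interval −0.64 to 0.40, adjusted p = 0.737), and this sign turned with scaling by total counts only. Of these calls 3 were higher and 2 lower, against 25.1% of all genes (10.2% higher, 15% lower). The call of S100a10 was lost without class 1 replicate 2 (adjusted p = 0.12) or class 4 replicate 2 (0.0532). That of S100a11 was lost when all 14 primary libraries were fitted together (0.0503).

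Class 3 was the intermediate step for the calprotectin genes and had the most S100a10. Against class 1, S100a8 was higher by 3.54 (SE 0.424, adjusted p = 0.00167) and S100a9 by 3.67 (SE 0.571, adjusted p = 0.00525). S100a10 was at 353 and 417 CPM in class 1, 303 and 270 in class 2, 551 and 608 in class 3 and 265 and 244 in class 4, a rise of 0.60 from class 1 to class 3 (SE 0.133, adjusted p = 0.0229). S100a4 was lower in class 3 than in class 1 (−0.68, SE 0.155, adjusted p = 0.0256). Hence 4 of 6 genes were called, 3 higher and 1 lower, against 13.4% of all genes (5.44% higher, 7.94% lower). The calls of S100a10 and S100a4 were lost without any of the 4 libraries of these classes (adjusted p of 0.0654 to 0.202), and those of S100a8 and S100a9 held.

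Class 2 differed from class 1 in S100a4 only, among the 6 genes, by 0.68 (SE 0.155, adjusted p = 0.0325), where 9.29% of all genes differed (3.34% higher, 5.95% lower). That call was lost without either class 1 library, class 2 replicate 1 or either class 3 library (adjusted p of 0.06 to 0.193). S100a6 ran from 482 and 484 CPM in class 1 through 776 and 527 in class 2 and 360 and 368 in class 3 to 355 and 529 in class 4. Its only pairwise call was class 3 below class 2 (−0.90, SE 0.226, adjusted p = 0.022), and it was lost without class 2 replicate 1 or either class 3 library (0.112 to 0.123). S100a11 stayed between 298 and 390 CPM in classes 1 to 3 and reached 584 and 734 CPM in class 4.

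The remaining contrasts gave the same order. Class 3 against class 2 had 5 calls among 6 genes (24.2% of all genes, 11.8% higher and 12.4% lower): S100a8 (3.31), S100a9 (3.35) and S100a10 (0.95) higher, S100a4 (−1.36) and S100a6 lower. Class 4 against class 2 had 4 calls (40.9% of all genes, 19.5% higher and 21.4% lower): S100a8 (6.35), S100a9 (6.56) and S100a11 (0.87) higher and S100a4 (−2.74) lower. Class 4 against class 3 had 5 (28.6% of all genes, 13% higher and 15.7% lower): S100a8 (3.05), S100a9 (3.20) and S100a11 (0.90) higher, S100a4 (−1.38) and S100a10 (−1.19) lower. These contrasts share libraries, and the adjusted p-values of these calls, by edgeR, were at most 0.022. When all 14 primary libraries were fitted together, S100a11 was lost in class 4 against class 2 (0.0756) and against class 3 (0.103), and S100a6 in class 3 against class 2 (0.0731).

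**Figure D4:**
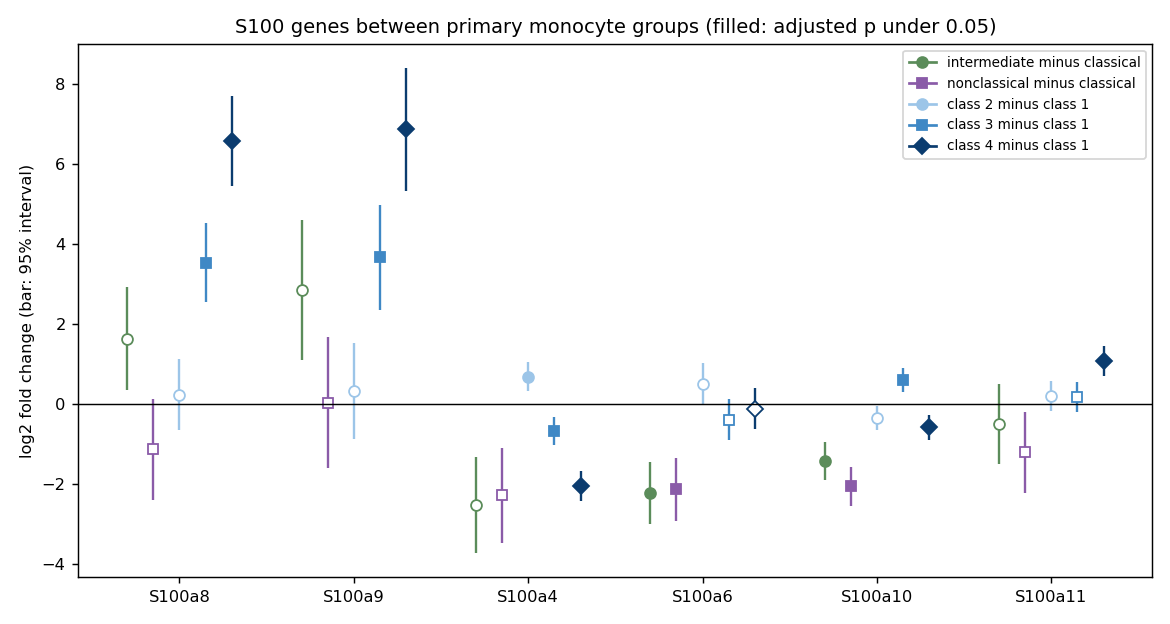
Points are log2 fold changes between primary monocyte groups with 95% intervals from the edgeR fit, filled where the adjusted p was under 0.05. S100a8 and S100a9 stand at 6.59 and 6.87 for class 4 minus class 1, S100a4 stands below 0 for both subset contrasts and for classes 3 and 4, and S100a10 is above 0 for class 3 only.

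Class 4 also differed in the markers of other cells. The neutrophil list rose in 10 of its 12 genes (median 6.60), and summed to 34144 and 45562 CPM in class 4 against 1161 and 1885 in class 1. The erythroid list summed to 3330 and 4261 CPM against 44.8 and 101, the B cell list to 2048 and 2536 against 334 and 363, and the list of progenitor markers to 10429 and 11454 against 864 and 1175. The list of classical monocyte markers summed to 7062 and 7596 CPM in class 4 and to 13567 and 14593 in class 1. In class 3 the neutrophil list summed to 8524 and 4865 CPM, the progenitor list to 6564 and 8178 CPM, and the mast cell and basophil list to 875 and 362 CPM against 4.45 and 9.49 in class 1. The tissue macrophage list was lower there, at 126 and 90.6 CPM against 1344 and 1092, with 5 of 5 genes lower, as was the B cell list with 6 of 6. The part of these cells in the S100 differences was not tested. Among the regulators Cebpe was higher in class 4 than in class 1, by 3.72 (SE 0.328, adjusted p = 0.000375), and Cebpa lower (−1.96, SE 0.336, adjusted p = 0.00495). Of the 9 partner and receptor genes 2 were higher (Anxa1 1.88, Cacybp 0.64 on the log2 scale) and 3 lower (Anxa2 −1.10, Ahnak −1.75 and Tlr4), with a median of −0.55 against 0.02 for all genes.

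Over all 9 groups, each gene had its own order of mean levels. For S100a8 class 4 (mean log2 CPM 13.51) and monocytic clones (13.35) came first and overlapped, and monocytic clones also overlapped with class 3. Then came class 3, intermediate, classical, class 2, class 1 and nonclassical cells, of which the last 3 overlapped with their neighbours, and progenitor clones came last (3.59). S100a11 was highest in class 4 (9.36) and S100a6 in classical and class 2 cells (9.33 and 9.32), which overlapped. S100a10 was highest in class 3 and classical cells (9.18 and 9.17), which overlapped, and lay below every primary mean in both clone states (6.15 and 4.85). S100a4 was highest in monocytic clones (8.88), which overlapped with class 2 (8.63). Progenitor clones were the lowest group for all 6 genes. Culture, sorting and cell type differ together between clones and primary cells and cannot be told apart, so no test was made across them.

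Per kilobase of exon, levels can be set beside each other between genes. In monocytic clones the median CPM per kilobase was 48597 for S100a9, 34997 for S100a8, 1006 for S100a4, 438 for S100a11, 409 for S100a6 and 85.0 for S100a10. In progenitors S100a4 came first at 48.6 CPM per kilobase and S100a8 last at 7.56. In classical monocytes S100a4, S100a6, S100a11 and S100a10 lay close together, with means of 797, 796, 788 and 718 CPM per kilobase, above S100a8 at 598 and S100a9 at 313. So the calprotectin genes were the 2 most abundant of the 6 per length in monocytic clones and the 2 least abundant in classical monocytes. The neutrophil list had a median sum of 23736 CPM in monocytic clones and 1564 in classical monocytes. The list of classical monocyte markers had 7092 and 19850 CPM. The part of these markers in the S100 levels was not tested.

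**Figure D5:**
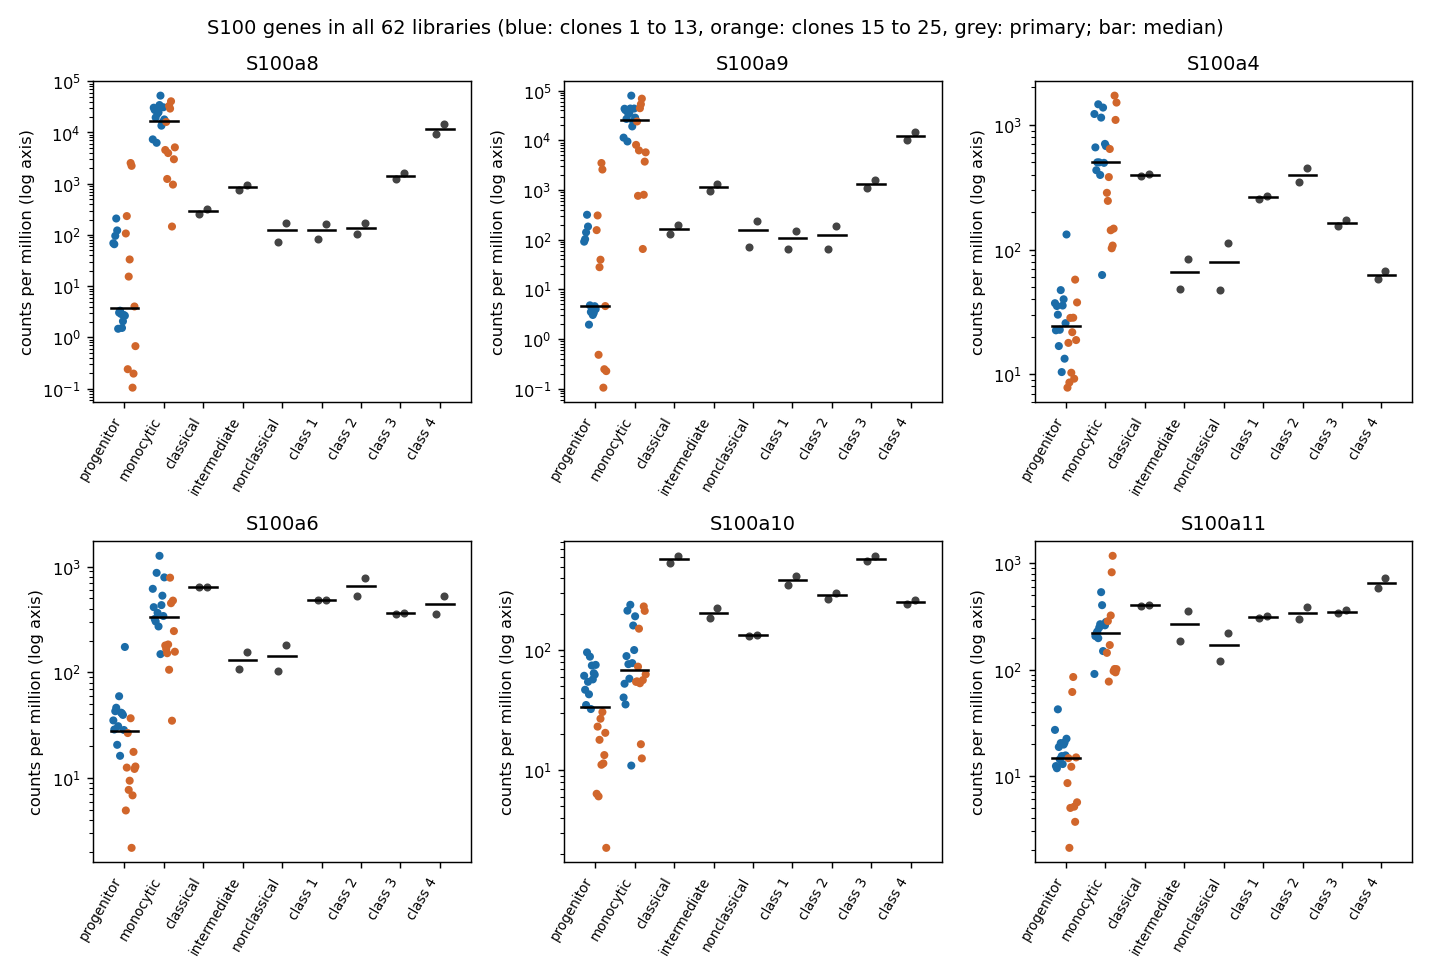
Each point is 1 of the 62 libraries, with CPM on a log axis by group and a bar at the group's median, clones 1 to 13 in blue, clones 15 to 25 in orange and primary cells in grey. S100a8 and S100a9 span from 0.105 CPM in the progenitors of clone 22 to 52340 and 79024 CPM in the monocytic cells of clone 9, and S100a10 lies higher in the primary libraries than in most clones.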

How the data were processed

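Raw read counts per gene were deposited by the authors for 62 samples used here and 1 further column that matched no sample and was left out. The tools named per the submitters' processing notes were HTSeq 0.6.0 and STAR 2.7.3a, with the build mm9; the strand setting, annotation release and filters are not given in the sources used here, so near-identical copies and overlapping genes could share counts. Groups came from titles and source names.

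CPM were scaled by TMM over all libraries, and a prior count of 2 was added for log2 values. Tests were 2-sided edgeR 4.0.16 quasi-likelihood F tests (R 4.3.3, limma 3.58.1) on the counts, with filterByExpr at a minimum count of 10, Benjamini-Hochberg adjustment over all genes tested and a threshold of 0.05. The scripts were tested on simulated data. Clones were blocked, since the design text pairs them (same-clone deviations had a mean r of 0.20 and exceeded 0.1 in 18 of 24 clones). Subsets and classes were fitted separately without a block. The 3 correlations of subset replicate differences were 0.29, 0.48 and 0.41, so these replicate numbers may mark pairs. The main subset tests did not use this possible pairing, and the replicate block was run as an alternative. The omissions of clones 4, 17, 19 and 22 and of clones 20 and 21 were chosen after seeing the data. DESeq2 1.42.0 and other scalings, filters and omissions were alternatives. Permutation tests (Python 3.11.15, numpy 2.4.6) drew 100000 resamples; the smallest p they give is 1e-05. Clones counted as separate groups where a gap exceeded 1.5 log2 units with at least 3 clones on each side.

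The 6 genes were always named; partner, regulator, family and marker lists were named by up to 4 genes past the threshold, with further ones chosen after their values were seen. For likeness, 3 genes per S100 gene were named. Exon lengths came from GENCODE M21, promoters from RefSeq. The members, lists and tests were chosen with earlier results of these data known.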

Additional observations from a re-analysis of the deposited data

Results flagged for a closer look

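The change of S100a10 on maturation differed between the clone sets by 1.98 log2 units (SE 0.606, adjusted p = 0.0197, edgeR), with a mean rise of 0.43 in clones 1 to 13 and 2.34 in clones 15 to 25. It was taken up because a test of the difference itself passed. The sets also differ in depth, and the part of depth was not tested.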

How the results depend on the processing

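Over the S100 results with a table of alternatives, which leaves out most changes that passed no test, 671 alternative values kept direction and side of the threshold, 86 lost and 17 gained a call, and 4 changed sign: the relation of progenitor to monocytic S100a10 was −0.056 with total counts only, −0.086 centred on the clone set, −0.20 on residuals of depth and −0.026 without clones 20 and 21. The change in the balance of S100a8 and S100a9 turned to −0.12 without clones 4, 17, 19 and 22. The cause was not tested for any of these.

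Leaving out clones 4, 17, 19 and 22, chosen after seeing the data, gave 1 S100 gene instead of 4 in the clone effect, and 0 instead of 1 and 1663 genes instead of 2755 in the set difference. It also gave 1 relation of progenitor to monocytic level, that of S100a11, instead of 3. Those 3 include the pooled relations of S100a8 and S100a9, which are not read because their clones form separate groups. Leaving out clones 20 and 21, also chosen after seeing the data, gave 1 S100 gene instead of 4 in the clone effect, 1 instead of 2 in the spread, and 4413 genes in the set difference. The clone effect had 1357 genes, 2054 with no filter, 36 in clones 1 to 13 alone (0 S100 genes) and 387 in clones 15 to 25 alone, where maturation called 6070 genes instead of 9132. Centred on the clone set, 8 pair relations passed instead of 13.

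In one fit of all 14 primary libraries, the 3 subsets together had 6 S100 genes and 3146 genes, intermediate against classical 4 and 2331, nonclassical against classical 4 and 2742, and nonclassical against intermediate 2 and 624. With DESeq2 these were 5 and 3841, 5 and 3299, 4 and 3593, and 3 and 1289. With DESeq2 size factors 1 S100 gene passed between intermediate and classical cells, and with total counts only 1 there and 1 over the 3 subsets. The 14-library fit gave 3500 genes for the 4 classes together, 572 (0 S100 genes) for class 2 against 1, 888 for 3 against 1, 1722 for 4 against 1, 2005 for 3 against 2, 3357 for 4 against 2 and 1993 for 4 against 3. Class 2 against 1 had 0 S100 genes with total counts only, 2 and 2325 genes with no filter, and 2 and 2346 with DESeq2, which gave 2908 for 3 against 1.

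Leaving out 1 library at a time gave, for S100 genes and all genes, 0 to 4 and 0 to 404 (3 subsets together), 0 to 2 and 0 to 205 (intermediate against classical), 0 to 2 and 0 to 869 (nonclassical against classical), 5 to 6 and 4158 to 7352 (4 classes together), 0 to 1 and 495 to 2325 (class 2 against 1), 2 to 4 and 615 to 2944 (3 against 1), 4 to 5 and 1546 to 4305 (4 against 1), 4 to 5 and 1922 to 4342 (3 against 2), 4 to 5 and 3487 to 6099 (4 against 2) and 5 to 5 and 1798 to 4704 (4 against 3). A lone library is assumed there to vary like the other groups.

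With total counts only, the median log2 change of all genes moved on maturation from −0.02 to −0.45, and the share of higher calls from 49% to 31.9%. For class 3 against 1 the median moved from 0.002 to 0.18 (higher calls 40.6% to 59.7%), for 4 against 1 from 0.02 to 0.24 (40.5% to 60.5%), for 3 against 2 from −0.07 to 0.17 (48.8% to 66.5%) and for 4 against 2 from 0.02 to 0.32 (47.7% to 63.5%). In the set difference the share went from 27.2% to 42.9%, and to 41.8% with DESeq2 size factors. No S100 change that passed its test turned sign under these scalings. With total counts only, 6 changes that had not passed did: S100a6 (class 4 against 1, nonclassical against intermediate), S100a9 (nonclassical against classical), S100a10 (class 4 against 2), S100a11 (class 3 against 2) and S100a4 (set difference), of which the last 2 also did with DESeq2 size factors. The calls of S100a4 (class 2 or 3 against 1, adjusted p = 0.0502 and 0.0703), S100a10 (4 against 1, 0.0998) and S100a6 (3 against 2, 0.0637, and 4 classes together, 0.137) were lost with total counts only, as were those of S100a6 among subsets (together 0.0535, intermediate against classical 0.0612).

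Class replicate numbers did not pair the libraries (r from −0.01 to 0.21). With the replicate block the 4 classes together had 5 S100 genes and 5558 genes, S100a6 being lost (adjusted p = 0.0757). For all 3 subsets together the block called 3 S100 genes instead of 2. Besides this and the subset calls given with the results, the block changed no other call in the primary groups. Depth limits S100a8 and S100a9 in the lowest progenitor libraries.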
